A study of Rattus norvegicus with 24 samples.

Results

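A set of 10 genes of striated muscle was followed in the lungs of rats that had inhaled hexanal, a short-chain aldehyde: Ankrd1, Acta1, Ckm, Tnnt3, Tnni2, Tnnc2, Mylpf, Actn3, Pvalb and Myog. They were found on the array by matching each probe's RefSeq accession to these symbols, with no use of the measured values. The list of genes itself was chosen with earlier results of these data known. All 10 of 10 genes were found, each by 1 probe with 1 spot, out of 21255 genes or unnamed probes tested. Every probe was well above background, by the scanner software's own flag, on 24 of 24 arrays.

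Arrays of 1 colour were hybridized with RNA from the lungs of 24 Fischer-344 rats. The control group breathed clean air that had been filtered. The other groups breathed hexanal, at 600 ppm in the low-dose, 1000 ppm in the middle-dose and 1500 ppm in the high-dose group, and each group had 3 males and 3 females. The rats were 7 to 8 weeks old and were exposed 4 hours a day on 5 days a week; the labels give 5 weeks of exposure, while the study's methods give another length. The labels write the doses in ppm and, in the treatment protocol, as the same numbers in mg per cubic metre. No allele or other agent was used in any group. The sample is whole lung tissue, in which fewer cells of a type and less RNA per cell cannot be told apart.

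In skeletal and heart muscle, force comes from myosin filaments that pull on actin filaments inside the sarcomere. Calcium starts the pull by binding the troponin complex, creatine kinase keeps ATP available, and parvalbumin takes calcium up again in fast fibres. Myogenin is a transcription factor of muscle cell differentiation. Healthy lung parenchyma is not made of striated muscle, but the walls of the large pulmonary veins of rodents carry a sleeve of heart muscle cells. Acta1, Ckm and Ankrd1 are also used by heart muscle.

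Levels are given as log2 of the processed spot signal minus log2 of the 75th percentile of that array, so 0 is the 75th percentile and a difference of 1 is a 2-fold difference in signal. Because probes bind with different strength, levels of different genes are not compared. The 75th percentile was between 1700.87 and 3132.89 over the 24 arrays, and 70.7 to 81.83% of probes were well above background. The lung markers Sftpc and Sftpb (surfactant proteins), Scgb1a1 (club cells) and Ager (alveolar epithelium) were well above background throughout, and 0 of 8 lung markers was called at any dose (limma). The 24 arrays lay on 6 slides of 4, each with rats of 1 sex. No slide held control rats together with middle-dose or high-dose rats. With the slide as a block, these 2 doses are therefore compared with control only indirectly, through rats of lower doses on shared slides. A gene is called below when it differed at least 1.5-fold from the control group with an unadjusted p under 0.05 in limma. The 2 thresholds are those of the study, which set them on the methods' t-test. The p adjusted over all 21255 genes (Benjamini-Hochberg) is given beside it. Nothing in the labels ties arrays to shared animals, and each array is 1 rat.

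At 600 ppm, 0 of the 10 genes was called, against 0.16% of all tested genes called higher and 0.456% called lower. At 1000 ppm, Acta1, Ckm and Tnnc2 were called higher and 0 genes lower, 3 of 10 against 1.29% of all genes higher and 0.343% lower. Since the 10 genes were chosen with earlier results of these data known, this share is not independent of the data. At 1500 ppm, 0 of 10 was called, against 0.701% higher and 0.522% lower. No gene of the 10 had an adjusted p under 0.05 at any dose, the lowest being 0.515 for Acta1 at 1000 ppm. Normexp background correction turned the balance of calls over all genes at 1000 ppm, from 275 higher and 73 lower to 74 higher and 352 lower. Under it 0 of the 10 genes was called at 1000 ppm, 5 of 10 were higher and their median difference was -0.036. At an unadjusted p under 0.05 there were 0, 3 and 0 genes at the 3 doses in limma, and the methods' t-test called 0, 2 and 1. Of all 21255 genes tested, 920, 1910 and 1481 had an unadjusted p under 0.05 in limma. The methods' t-test called 23, 252 and 112 of all genes higher and 64, 47 and 76 lower. The exposed and the control rats overlapped for all 10 genes at each dose, where 0.273%, 0.452% and 0.48% of all genes did not overlap. Of the 10 genes, 7, 9 and 9 were higher than control at the 3 doses in rising order, with median differences of 0.13, 0.37 and 0.33 on the log2 scale. Over all genes tested, 49.6%, 51.3% and 53.8% were higher and the medians were 0.00, 0.00 and 0.01. The 3 comparisons share the control rats and are not independent of each other. With the slide as a block, 6, 7 and 3 of the 10 genes were higher, with medians of 0.12, 0.46 and -0.28.

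**Figure D1:**
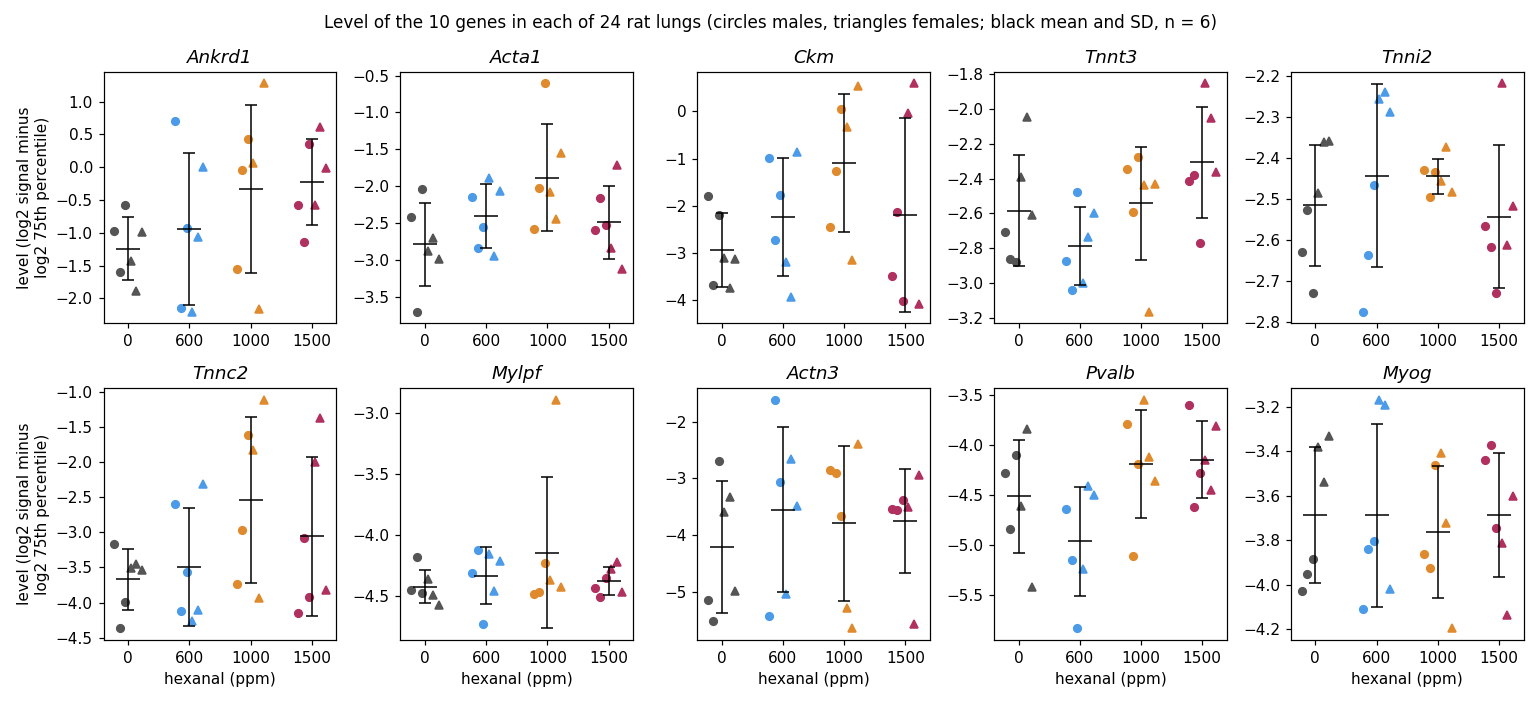
Level of each of the 10 genes in 24 rats, as log2 signal minus log2 of the array's 75th percentile, by hexanal dose in ppm (0 is the control group). Circles are males, triangles are females, and black marks are the mean and SD of 6 rats; the vertical scale differs between genes. Ckm, Tnnc2 and Ankrd1 spread widely within the exposed groups, while Tnni2 stayed between -2.78 and -2.22 in all 24 rats.

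Promoters were looked up for Acta1, Ckm and Tnnc2, the 3 genes called at 1000 ppm, and for Tnni2, which hardly varied, to show what these genes share in sequence. The table of RefSeq promoters on the build GRCr8 held 8 of the 10 genes, with 250 bases before and 50 bases after the start of each gene (300 in all, positions counted from 1 at the 5′ end of the strand of the gene). Capitals mark CAGCTG, an E-box of the kind that myogenic factors bind, CATTCC, the core of the M-CAT element of TEAD factors, and the CArG box of serum response factor.
Acta1, chr19:68784145-68784444, minus strand: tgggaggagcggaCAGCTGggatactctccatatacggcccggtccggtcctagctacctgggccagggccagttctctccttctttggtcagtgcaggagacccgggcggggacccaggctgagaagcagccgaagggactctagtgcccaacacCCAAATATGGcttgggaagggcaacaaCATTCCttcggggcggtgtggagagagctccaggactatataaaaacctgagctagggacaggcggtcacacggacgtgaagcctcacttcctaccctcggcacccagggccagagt
Ckm, chr1:88189211-88189510, plus strand: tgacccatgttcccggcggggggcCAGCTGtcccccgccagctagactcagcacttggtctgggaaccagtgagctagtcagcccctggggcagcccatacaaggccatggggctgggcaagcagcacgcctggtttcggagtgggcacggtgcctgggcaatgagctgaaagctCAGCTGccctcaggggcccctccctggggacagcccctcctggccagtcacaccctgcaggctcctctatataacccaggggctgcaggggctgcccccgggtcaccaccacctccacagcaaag
Tnnc2, chr3:173935290-173935589, minus strand: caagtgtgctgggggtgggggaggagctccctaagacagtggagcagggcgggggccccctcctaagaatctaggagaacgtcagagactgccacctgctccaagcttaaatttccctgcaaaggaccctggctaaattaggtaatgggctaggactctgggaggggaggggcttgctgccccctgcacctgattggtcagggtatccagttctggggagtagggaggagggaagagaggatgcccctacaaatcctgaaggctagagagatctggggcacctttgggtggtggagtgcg
Tnni2, chr1:207024240-207024539, plus strand: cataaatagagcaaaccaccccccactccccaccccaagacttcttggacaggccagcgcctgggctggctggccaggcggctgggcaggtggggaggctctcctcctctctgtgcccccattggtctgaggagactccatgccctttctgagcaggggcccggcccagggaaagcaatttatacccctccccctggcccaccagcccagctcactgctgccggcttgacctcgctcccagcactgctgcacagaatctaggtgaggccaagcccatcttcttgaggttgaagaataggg
CAGCTG stood at position 14 in Acta1, at positions 25 and 176 in Ckm and at position 96 in Mylpf (Myl11), so 3 of 8 held it, against 15.1% of 33469 promoters of that length. CATTCC was in 1 of 8, at position 184 of Acta1, against 14.2% of promoters, and the CArG box in 1 of 8, at position 157 of Acta1, against 1.64%. Tnnc2 and Tnni2 held none of the 3 sequences in this window. Both strands were searched and the 3 sequences do not overlap in these promoters. The wider E-box CANNTG, where N is any base, was in 7 of 8, against 72.1% of promoters. It stood 3 times in Ckm and 3 times in Tnnc2. Of the other sequences searched, TATAAA was in 2 of 8, against 14.2%, and the MEF2 box in 0 of 8, against 3.29%.

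Across the genes of the thin filament and its troponin complex the differences from control were uneven. Acta1 (NM_019212), the actin of skeletal muscle filaments, had levels from -3.71 to -2.04 in the control group (median -2.79), from -2.95 to -1.89 at 600 ppm (median -2.35), from -2.58 to -0.61 at 1000 ppm (median -2.06) and from -3.12 to -1.71 at 1500 ppm (median -2.56). The high values of the middle-dose group were those of male rat 13 at -0.61 and female rat 33 at -1.55, and the groups overlapped. Acta1 differed from control by 0.90 at 1000 ppm (SE 0.31, 1.87-fold, adjusted p = 0.515 in limma, n = 6). An exact permutation test of the 6 rats against 6 gave p = 0.0303, two-sided, where the smallest p the test can give is 0.00216. Its differences were 0.38 at 600 ppm and 0.29 at 1500 ppm, neither past the test. With the slide as a block the 1000 ppm difference was 1.08 (SE 0.51, adjusted p = 0.999 in limma) and was still called. Under normexp background correction it was 0.51 and was not called.

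Tnnc2 (NM_001037351), the calcium-binding troponin C of fast skeletal fibres, was -4.37 to -3.16 among control rats (median -3.52) and between -4.26 and -2.32 at 600 ppm (median -3.84). It was between -3.94 and -1.12 at 1000 ppm (median -2.40) and between -4.15 and -1.38 at 1500 ppm (median -3.46). In the middle-dose group 4 of 6 rats lay above every control rat, and the other 2 lay inside the control range. The difference at 1000 ppm was 1.13 (SE 0.52, 2.19-fold, adjusted p = 0.538 in limma), with p = 0.0671 in the exact permutation test, two-sided. Blocking on the slide gave 0.65 (SE 0.85), not called, and normexp background correction 0.52, not called. The methods' t-test (1.13) and array weights (0.96) did not call it either. The call was also lost without control rat 2 (0.99) or 3 (1.07) or middle-dose rat 13 (0.95), 31 (0.99) or 33 (0.85).

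Tnni2 (NM_017185), the inhibitory troponin I of fast fibres, was nearly constant. Its levels ran from -2.73 to -2.36 in the control group (median -2.51), from -2.78 to -2.24 at 600 ppm (median -2.38), from -2.49 to -2.37 at 1000 ppm (median -2.44) and from -2.73 to -2.22 at 1500 ppm (median -2.59). The whole range over 24 rats was 1.47-fold, against 25.6-fold for Ckm. Its differences from control were 0.07, 0.07 and -0.03 (SE 0.09 each).

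Tnnt3 (NM_001270665), the tropomyosin-binding troponin T of fast fibres, lay between -2.88 and -2.05 among control rats (median -2.66) and between -3.04 and -2.48 at 600 ppm (median -2.80). It lay between -3.16 and -2.27 at 1000 ppm (median -2.43) and between -2.77 and -1.85 at 1500 ppm (median -2.37). All 4 groups overlapped, and the differences were -0.20, 0.04 and 0.28 (SE 0.17 each), with adjusted p-values of 0.997, 0.955 and 0.776 in limma. The 3 fast troponin genes therefore had differences of 1.13, 0.07 and 0.04 at 1000 ppm, 1 of the 3 being called.

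Of the thick filament and the Z-disc, Mylpf (NM_012605; Myl11 in the current RefSeq annotation), the fast regulatory light chain of myosin, was -4.58 to -4.18 among control rats (median -4.46) and between -4.73 and -4.12 at 600 ppm (median -4.26). Its levels were -4.49 to -2.89 at 1000 ppm (median -4.40) and -4.51 to -4.22 at 1500 ppm (median -4.40). A single rat, female 32 of the middle-dose group, stood apart at -2.89, with the next rat of its group at -4.23. The difference at 1000 ppm was 0.28 (SE 0.19) with this rat and 0.03 without it.

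Actn3 (NM_133424), the alpha-actinin of fast-fibre Z-discs, was spread over a wide range in each group. Levels were -5.53 to -2.68 in the control group (median -4.29), -5.43 to -1.61 at 600 ppm (median -3.28), between -5.65 and -2.39 at 1000 ppm (median -3.29) and between -5.57 and -2.95 at 1500 ppm (median -3.52). The differences from control were 0.66, 0.42 and 0.46 (SE 0.68 each), all within the spread between rats. Blocking on the slide gave -1.03, -2.50 and -3.22, and Actn3 was then called lower at 1000 and 1500 ppm, with adjusted p-values of 0.999 and 0.983 in limma.

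Ckm (NM_012530), the muscle creatine kinase that regenerates ATP from phosphocreatine, had the largest difference of the 10 genes at 1000 ppm in the fit without the block. It ranged from -3.75 to -1.80 in the control group (median -3.11) and from -3.94 to -0.85 at 600 ppm (median -2.24). It ranged from -3.15 to 0.53 at 1000 ppm (median -0.80) and from -4.08 to 0.59 at 1500 ppm (median -2.81). In the middle-dose group 4 of 6 rats lay above every control rat. In the high-dose group 2 rats lay above every control rat and 2 lay below every control rat. The difference was 1.84 at 1000 ppm (SE 0.80, 3.58-fold, adjusted p = 0.521 in limma; exact permutation p = 0.0325, two-sided). At 600 and 1500 ppm it was 0.70 and 0.74, and neither passed the test. With the slide as a block the 1000 ppm difference was 1.37 (SE 1.40), not called, and the 1500 ppm difference was -1.12. Normexp background correction gave 1.39 at 1000 ppm, not called. The call was also lost without control rat 2 (1.69) or 22 (1.68) or middle-dose rat 13 (1.61), 31 (1.69) or 33 (1.51).

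Pvalb (NM_022499), the calcium buffer parvalbumin, lay between -5.42 and -3.84 among control rats (median -4.44), between -5.84 and -4.41 at 600 ppm (median -4.90), between -5.11 and -3.55 at 1000 ppm (median -4.16) and between -4.62 and -3.60 at 1500 ppm (median -4.21). The groups overlapped, and the differences were -0.45, 0.33 and 0.37 (SE 0.29 each). It was called in 1 fit, at 600 ppm without female control rat 23, the lowest control value, where the difference was -0.63.

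Myog (NM_017115), the differentiation factor myogenin, had a median of -3.71 in the control group (-4.03 to -3.33), -3.82 at 600 ppm (-4.11 to -3.17), -3.79 at 1000 ppm (-4.20 to -3.41) and -3.67 at 1500 ppm (-4.14 to -3.37). The 4 groups covered nearly the same range. Its differences from control were -0.0026, -0.08 and 0.0008 (SE 0.18 each), with an adjusted p of at least 0.925 in limma.

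Ankrd1 (NM_013220) encodes a stress-responsive ankyrin repeat protein of heart and skeletal muscle that is found in the sarcomere and the nucleus. Its levels were -1.89 to -0.58 in the control group (median -1.21), -2.21 to 0.70 at 600 ppm (median -0.9996), -2.16 to 1.28 at 1000 ppm (median 0.01) and -1.13 to 0.62 at 1500 ppm (median -0.29). In the high-dose group 5 of 6 rats lay above every control rat, and in the middle-dose group 4 did, with 1 rat below every control rat. Of those 5 high-dose rats, rats 16 (-0.573) and 36 (-0.574) barely exceeded the highest control rat (-0.575). The differences were 0.30, 0.91 and 1.02 (SE 0.52 each), and the order of the 4 means followed the dose. The SDs were 0.48, 1.16, 1.29 and 0.66, and each step between neighbouring means was smaller than the SD of either group. The exact permutation test at 1500 ppm gave p = 0.0173, two-sided, beside an adjusted p of 0.742 in limma. It was called at 1500 ppm by limma without low-dose rat 6 (1.02), middle-dose rat 32 (1.02) or 33 (1.02) or high-dose rat 17 (1.20), and at 1000 ppm without middle-dose rat 11 (1.16) or 32 (1.28). Its slope on dose was 0.74 per 1000 ppm (SE 0.33, adjusted p = 0.566 in limma). The slope with the slide as a block was -0.22. The 10 genes had 8 positive slopes, 0 with an adjusted p under 0.05 and 1, that of Ankrd1, with an unadjusted p under 0.05. Of the slopes with that block, 3 were positive.

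**Figure D2:**
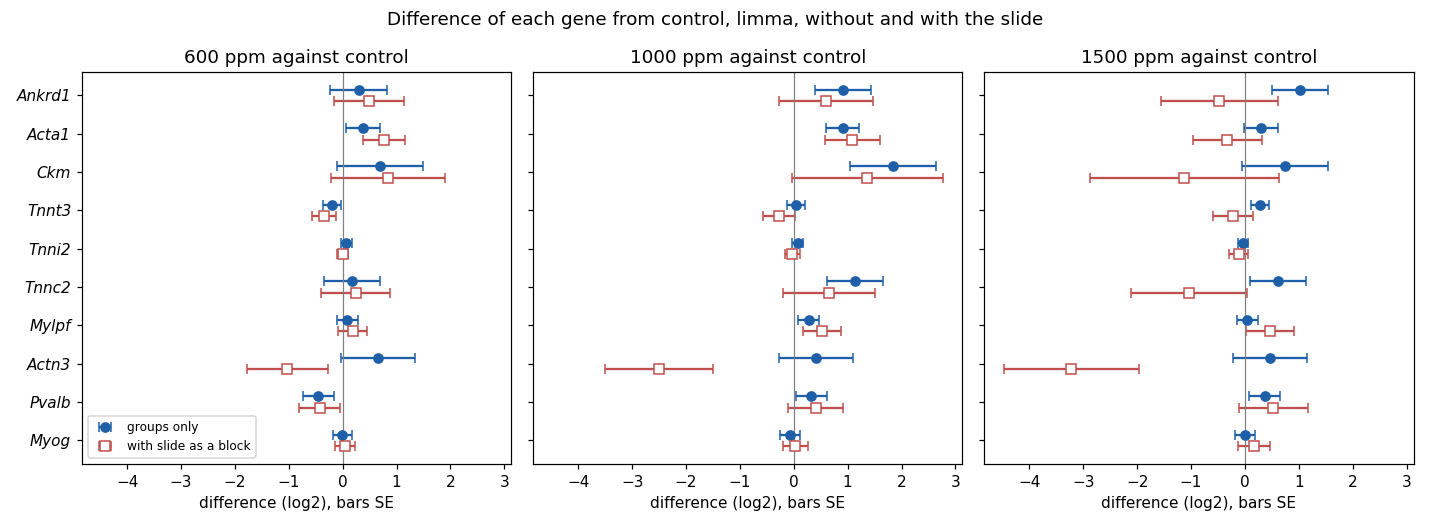
Difference of each gene from the control group on the log2 scale at each dose, with the SE as bars, from limma on the 4 groups (filled circles) and with the slide added as a block (open squares). At 1500 ppm the difference of Ankrd1 went from 1.02 to -0.47 and that of Actn3 from 0.46 to -3.22, while at 1000 ppm Acta1 was 0.90 and 1.08.

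Within slides, control and low-dose rats met on 2 slides, with 3 control rats and 1 low-dose rat on each. The low-dose rat minus the control mean was 1.57 and 0.13 for Ckm, 1.24 and -0.76 for Tnnc2, 1.75 and -0.77 for Ankrd1, and 0.57 and 0.96 for Acta1, for the male and the female slide. Acta1 and Ckm kept their sign over both slides. So did Mylpf (0.06 and 0.32), Tnnt3 (-0.06 and -0.65), Actn3 (-0.98 and -1.08) and Pvalb (-0.24 and -0.62), while Tnni2 and Myog did not. Middle-dose rats shared a slide with 3 high-dose rats in 2 cases, as 1 rat each. There the high-dose mean minus the middle-dose rat was -3.27 and -1.71 for Ckm, -2.10 and -1.28 for Tnnc2, -1.82 and -1.004 for Acta1, and -0.88 and -1.27 for Ankrd1. On both of these slides the middle-dose rat was thus higher for the 4 genes. These were rats 13 and 33, the highest of the middle-dose group for each of the 4 genes. Low-dose and middle-dose rats met on 2 other slides, 2 rats of each. There the middle-dose mean minus the low-dose mean was 0.38 and 0.66 for Ckm and 0.49 and 0.33 for Tnnc2. It was 0.39 and 0.24 for Acta1 and 0.74 and -0.51 for Ankrd1, for the male and the female slide.

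The dose effects in males and females were compared by an interaction term, which was past an adjusted p of 0.05 in 0 of the 10 genes at each dose. At 1500 ppm 5.02% of all tested genes passed that threshold. Among the 10 genes 0, 1 and 1 had an unadjusted p under 0.05, Tnnt3 at 1000 ppm and Myog at 1500 ppm. At 1500 ppm Ckm differed from control by -0.66 in males and 2.15 in females, 3 rats of each sex per group, a difference of 2.81 (SE 1.59, adjusted p = 0.342 in limma). Myog differed by 0.44 in males and -0.43 in females (difference -0.87, SE 0.31, adjusted p = 0.112). Males and females lay on different slides, and with the slide as a block these differences were 0.40 for Ckm and 0.92 for Myog.

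The 10 genes did not vary together as 1 group from rat to rat. After the group means were subtracted, Pearson's r over 24 rats had a median of 0.00 across the 45 pairs of genes, from -0.53 for Tnnt3 and Mylpf to 0.92 for Ckm and Tnnc2. Both values of a pair come from the same array and share its scaling. Ckm and Tnnc2 were correlated with Ankrd1 (r = 0.60 and 0.69) and with Acta1 (r = 0.59 and 0.58). Tnnt3 had r = 0.49 with Ckm and 0.60 with Tnnc2. Tnni2, Myog, Mylpf, Actn3 and Pvalb had r between -0.50 and 0.02 with both Ckm and Tnnc2. In the 300 promoter bases printed above, Ckm and Tnnc2, the pair with the highest r, did not share a CAGCTG, since Tnnc2 held none. Both held 3 of the wider E-box CANNTG. Whether any of these sequences bears on the correlation was not tested.

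Most listed genes of heart muscle were high in the same rats as Ckm and Tnnc2. Ryr2, a heart marker that passed the filter and was read from 1 of its 2 probes, was not. With group means subtracted, its r was 0.18 with Ckm and 0.0003 with Myh6, and its range over 24 rats was 1.9-fold. Myh6, the alpha myosin of the heart, ranged from -8.30 to 3.46 in the control group, from -7.67 to 4.28 at 600 ppm, from -0.39 to 5.36 at 1000 ppm and from -7.93 to 5.41 at 1500 ppm, and was well above background on 20 of 24 arrays (5, 5, 6 and 4 of 6 in the 4 groups). The highest Ckm levels were 0.59 in high-dose female 37, 0.53 in middle-dose female 33 and 0.06 in middle-dose male 13, and Myh6 was at 5.41, 5.36 and 4.66 in these rats. The lowest Ckm levels were -4.08 in high-dose female 38 and -4.02 in high-dose male 18, where Myh6 was at -7.93 and -3.47. Over the 24 rats, with group means subtracted, r with Myh6 was 0.80 for Ckm (Spearman's rho 0.84), 0.66 for Tnnc2 (0.69), 0.43 for Ankrd1 (0.46) and 0.36 for Acta1 (0.42). For Tnni2 it was -0.32, for Mylpf -0.11, for Pvalb -0.04, for Actn3 -0.01, for Tnnt3 0.28 and for Myog -0.60. Without the 2 rats whose Myh6 was farthest from its median, r was 0.82 for Ckm, 0.70 for Tnnc2, 0.54 for Ankrd1, 0.28 for Acta1 and -0.59 for Myog. Within the 4 groups of 6 rats, r with Myh6 was between 0.72 and 0.97 for Ckm and between -0.06 and 0.93 for Tnnc2, lowest in the control group. For Ankrd1 it was between -0.02 at 1500 ppm and 0.96 at 1000 ppm. For Acta1 it was between -0.15 at 600 ppm and 0.66 at 1000 ppm.

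**Figure D3:**
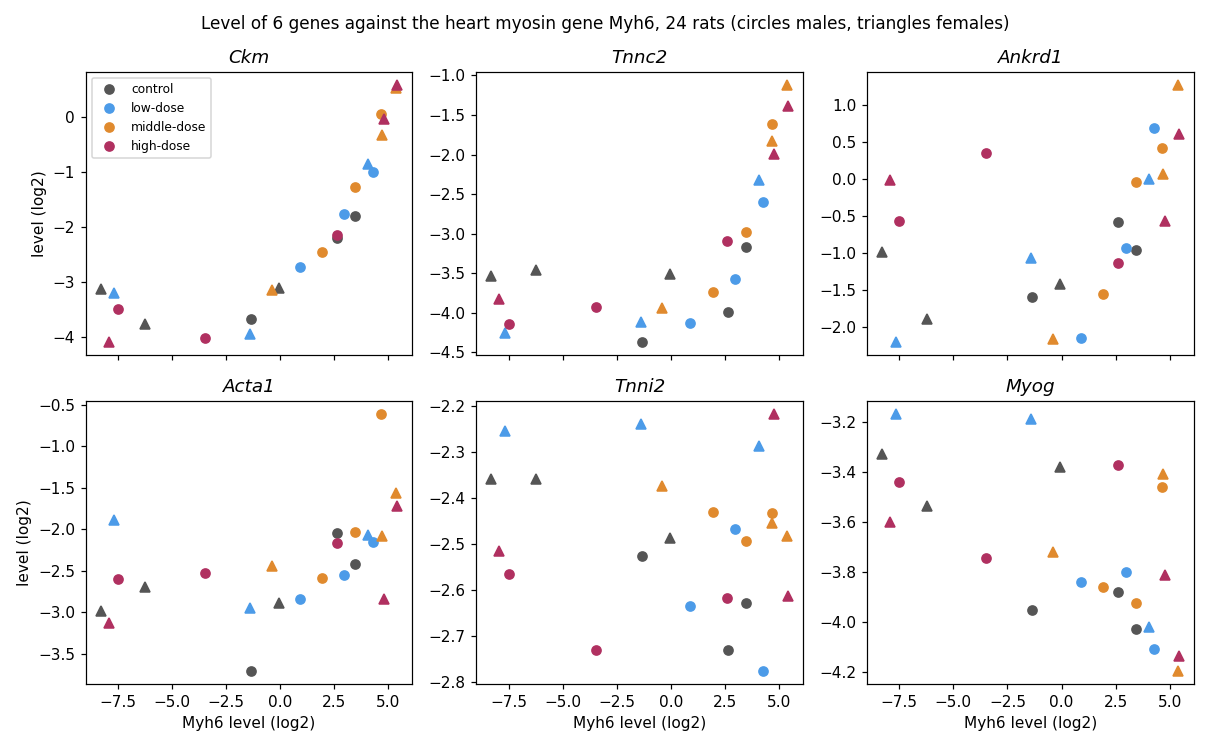
Level of Ckm, Tnnc2, Ankrd1, Acta1, Tnni2 and Myog (vertical, log2) against the level of the heart myosin gene Myh6 (horizontal, log2) in 24 rats, coloured by group, with circles for males and triangles for females. Ckm and Tnnc2 climb steeply with Myh6 at its upper end, where rats of all 4 groups lie, while Tnni2 shows no such climb.

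**Figure D4:**
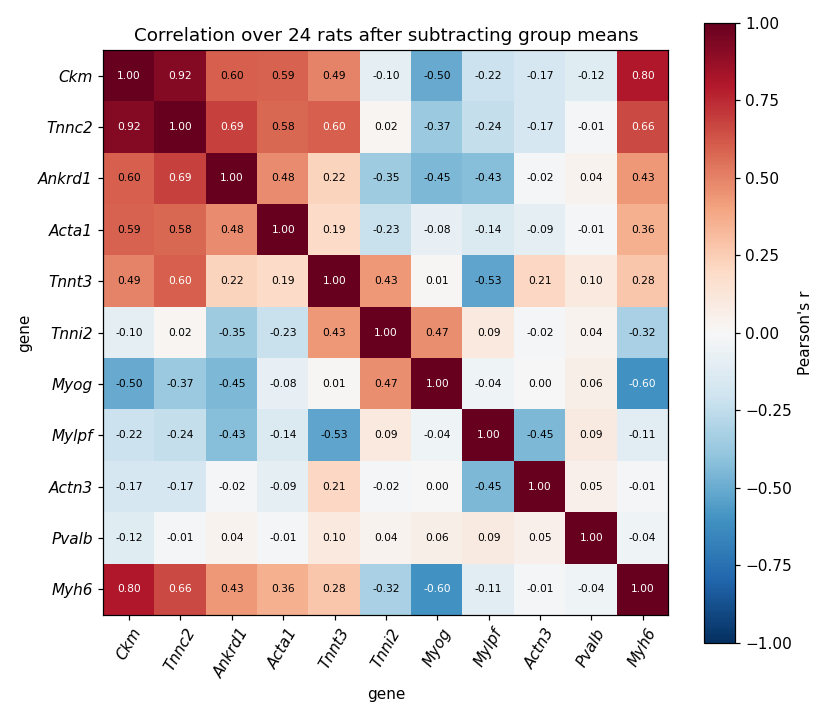
Pearson's r between the 10 genes and with Myh6 over 24 rats after subtraction of group means. Ckm and Tnnc2 form the darkest pair at 0.92, both are positive with Ankrd1, Acta1 and Myh6, and Mylpf, Actn3 and Pvalb are near 0 or below with them.

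By the same measure, the 3 named genes most like Ckm were Myl4 (r = 0.98), Mb (0.98) and Tnnc1 (0.97), which encode an atrial myosin light chain, myoglobin and the troponin C of slow and heart muscle. Those most like Tnnc2 were Pln (0.94), Tcap (0.94) and Klhl41 (0.94), which encode phospholamban, the titin cap and a sarcomere-associated kelch protein. For Acta1 they were Uqcrc1 (0.83), Gtpbp2 and Traf7, and for Ankrd1 they were Mto1 (0.84), Usp13 and Cycs. The nearest genes to Tnni2 and Myog were not sarcomere genes: Or8c19 (0.91), Apoc4 and Lct for Tnni2, and Or3a4 (0.92), Or4k48 and Atoh7 for Myog. For Mylpf, Actn3, Pvalb and Tnnt3 the nearest were Grxcr1 (0.84), Peli3 (0.75), Slc37a1 (0.73) and Nckap1l (0.81).

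Of 12 heart markers 11 passed the filter, and 11 of 11 were higher than control at each dose, with medians of 1.06, 2.48 and 0.64. At 1500 ppm the sexes stood on opposite sides of control. In males 0 of 11 was higher (median -1.35) and in females 11 of 11 were (median 3.05). Males and females of this dose lay on different slides, and neither slide held control rats. With the slide as a block, the female minus male difference changed sign for each of the 11 markers except Ryr2. For Myh6 it went from 9.98 to -2.62 and for Sln from 6.12 to -1.44. Among the high-dose females, Myh6 was at 4.77 in rat 36, at 5.41 in rat 37 and at background (-7.93) in rat 38. In the fit without the block, the interaction term passed an adjusted p of 0.05 in 0 of the 11, the lowest being 0.211 for Myl7. Of the 11, 4 had an unadjusted p under 0.05. At 1000 ppm 7 were called higher, against 1.29% of all tested genes, namely Sln (3.67), Ckmt2 (3.70), Mybpc3 (3.41), Tnnt2 (2.48), Tnni3 (2.02), Pln (1.49) and Actc1 (1.26), each with an adjusted p of at least 0.515 in limma. With group means subtracted, these 7 had r of 0.91 to 0.95 with Ckm, so the 7 calls are not independent of each other. Mybpc3 was well above background on 3 of 6 control arrays and Ckmt2 on 5 of 6, so the sizes of their differences rest partly on values at background. Those numbers also moved with the slide: with it as a block 0 of 11 was called at 1000 ppm, and the median of the 11 heart markers was 1.22 at 1000 ppm (11 higher) and -1.80 at 1500 ppm (1 higher). Myh6 itself, also partly at background, differed by 4.93 (SE 2.52) at 1000 ppm, not called, and by 0.74 (SE 4.22) with the block, and Myl7, the atrial light chain, was also higher without being called. For a summed level, the scaled signals of the 11 heart markers were added in each rat before the log2 was taken. The brightest probes therefore weigh most in it, and it does not stand for all 11 equally. It ran from 1.90 to 5.28 in the control group and from 2.43 to 6.03 at 600 ppm. At 1000 ppm it ran from 3.19 to 7.11 and at 1500 ppm from 1.90 to 7.13. Nppa, the atrial natriuretic peptide gene, was well above background on 5 of 24 arrays and did not pass. With the level of Myh6 as a covariate, a setting chosen after seeing the data, the differences at 1000 ppm were 0.59 for Ckm (SE 0.53) and 0.47 for Tnnc2 (SE 0.43), neither called. Acta1 was at 0.69 (SE 0.32) and was called, and Ankrd1 at 1500 ppm was at 0.96 (SE 0.49). Beyond these values the part of heart muscle RNA in the differences was not tested.

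Other genes of striated and skeletal muscle gave a mixed picture. Their list left out the heart markers above but was not limited to genes of skeletal muscle alone. Of a list of 30 such genes, 26 had a probe and 17 passed the filter. The myosin heavy chains of adult fast fibres were at or near background, Myh1 being well above it on 1 of 24 arrays, Myh2 on 4 and Myh4 on 9. So were the light chain Myl1 (3 arrays), the slow troponin Tnni1 (3), Myod1 (0), the factor that commits cells to muscle, and Myf6 (1) and Stac3 (0). At 600 ppm 0 of 17 genes was called, with 11 higher and a median of 0.06. At 1000 ppm 3 of 17 were called higher, against 1.29% of all tested genes, with a median of 0.13 over the list: Myh8, the perinatal myosin (2.99, SE 1.35), Pgam2, the muscle phosphoglycerate mutase (2.36, SE 1.06), and Mb (2.31, SE 0.98), with adjusted p-values of 0.532, 0.532 and 0.515 in limma. Blocking on the slide left 0 of 17 called, with these 3 at 1.78 (SE 2.21), 1.04 (SE 1.79) and 1.59 (SE 1.61). These 3 had r of 0.86, 0.86 and 0.82 with Myh6. At 1500 ppm 1 of 17 was called higher, against 0.701% of all tested genes: Cav3, the muscle caveolin (0.74, SE 0.34, adjusted p = 0.696 in limma), with a median of 0.12 over the list. With the block Cav3 was at -0.44 (SE 0.63), not called, and the list's median was -0.017, with 8 of 17 higher. Myh3, Tnnt1 and Atp2a1, the embryonic myosin, the slow troponin T and the calcium pump of fast fibres, were at 0.10, 0.15 and 0.13 at 1000 ppm and were not called at any dose.

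Smooth muscle markers, which belong to the airways and vessels of the lung, were called in 1 of 8 cases at 1000 ppm, the calponin gene Cnn1 (0.60, SE 0.21, adjusted p = 0.515 in limma), and in 0 of 8 at the other doses. Of all tested genes 1.29% were called higher at 1000 ppm. With the slide block 3 of 8 were called at 1000 ppm, Cnn1 (0.84), Tagln (0.61) and Actg2 (0.80), and the median went from 0.30 to 0.56 with 8 of 8 higher in both fits; their adjusted p-values were then 0.999. The smooth muscle actin Acta2 was at 0.33 (SE 0.13), Tagln at 0.34 (SE 0.11) and Myh11 at 0.06 (SE 0.13) at 1000 ppm. The summed level of the 8 smooth muscle markers was formed as for the heart markers. It was between 4.05 and 4.68 in the control group and between 4.43 and 4.94 at 1000 ppm. Relatives of Ankrd1 and genes that, like it, are known targets of the stretch-sensitive YAP pathway were called in 0 of 10 cases at each dose, with medians of 0.00, -0.03 and -0.03. Among them Ankrd2, a muscle relative of Ankrd1, had a slope of 0.12 per 1000 ppm (SE 0.10) and Ankrd23 one of -0.03 (SE 0.09). The secreted matrix proteins Ccn1 and Ccn2 had slopes of -0.49 (SE 0.25) and 0.27 (SE 0.13), none with an adjusted p under 0.05 in limma.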

How the data were processed

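Lung RNA of 24 rats was labelled with Cy3 and hybridized to one-colour Agilent arrays. The authors deposited spot intensities from Agilent Feature Extraction, with local background taken off and trends across the array removed, but with no scaling from array to array. The deposited value table of the series matched these intensities within 1% for 99.72 to 99.82% of probes an array. Control spots and outlier spots were left out, spots of a probe were averaged, and log2 signal minus the log2 75th percentile of its array was used. Of 42877 spots (30367 probes), 18355 probes were matched by accession to 15443 symbols through RefSeq's list of GRCr8 genes, used for names. The array design names another build, so its coordinates were not used. The filter kept a probe that 5 or more of the 6 arrays of some group showed well above background, and a gene was read from its brightest probe.

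The contrasts of the doses with control came from lmFit and eBayes in limma 3.58.1 (R 4.3.3) on 4 groups and 24 arrays. The sex interaction used 8 dose and sex groups, and the slope used dose in ppm. The number of arrays limits the precision, and the scripts were tested on simulated data. The members and gene lists were chosen with earlier results of these data known. The genes named are the 10 members and, of each list, called genes and the first 4 that passed the filter; Tnni1, Myl1, Myh1, Myh2, Myh4, Myod1, Myf6, Stac3 and Nppa are given as counts of arrays. Likeness was the highest Pearson r over 24 arrays after subtraction of group means. Alternatives were normexp (offset 50, on median spot signals), quantile or median scaling, the value table without scaling, no or a stricter filter, the methods' t-test, a fit for each dose alone with control, a sex covariate, a slide block, weighted arrays, separate probes, an adjusted p threshold, leaving out each rat, and, added after seeing the data, Myh6 as a covariate. All arrays were scanned on 1 day. Figures used matplotlib.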

Additional observations from a re-analysis of the deposited data

Results flagged for a closer look

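In 40 groups of 6 rats (10 genes in 4 groups), 3 values lay far from the rest of their group, where chance gives about 1 in 20. Mylpf in the middle-dose group was -2.89 in female rat 32, with the next rat at -4.23. In the same rat Tnnt3 was -3.16, the lowest of its group, with the next at -2.59. Actn3 in the high-dose group was -5.57 in female rat 37, with the next rat at -3.55. Rat 37 had the highest Ckm level of all rats.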

How the results depend on the processing

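At 1000 ppm 3 genes were called in the fit on 4 groups, 0 with normexp, 0 at an adjusted p under 0.05 and 1 with Myh6 as a covariate (added after seeing the data). At 1500 ppm 1 gene was called by the methods' t-test and 1 by the fit on control and 1 dose (Ankrd1 in both), and 1 with the slide as a block (Actn3, lower). After Benjamini-Hochberg adjustment the methods' t-test left 0 of the 10 genes at each dose. Over the 24 fits that leave out a rat, 0 to 1 genes were called at 600 ppm, 1 to 4 at 1000 ppm and 0 to 1 at 1500 ppm. Acta1 was called in all 24 of them at 1000 ppm. Ckm and Tnnc2 were called in 19 each, and Acta1 alone in those without control rat 2 or middle-dose rats 13, 31 or 33. Tnnc2 was lost without control rat 3 and Ckm without control rat 22. Without middle-dose rat 11 or 32 Ankrd1 joined the calls at 1000 ppm. The median difference at 1000 ppm moved from 0.37 to -0.036 with normexp, under which Acta1, Ckm and Tnnc2 were at 0.51, 1.39 and 0.52. The median at 1500 ppm moved from 0.33 to -0.28 with the slide as a block. Where a value changed sign, the cause was not tested. With normexp these were Tnni2 (-0.043), Tnnc2 (-0.038) and Mylpf (-0.17) at 600 ppm, Tnnt3 (-0.093), Tnni2 (-0.14), Mylpf (-0.24) and Pvalb (-0.13) at 1000 ppm, and Mylpf (-0.16) and Myog (-0.16) at 1500 ppm. With quantile normalization and with the array median Myog was at 0.010 and 0.010 at 600 ppm and at -0.037 and -0.0082 at 1500 ppm. In the value table without scaling Myog was at 0.068, 0.028 and -0.064 at the 3 doses and Mylpf at -0.021 at 1500 ppm. With array weights Tnnt3 was at -0.060 at 1000 ppm. With Myh6 as a covariate Tnnc2 was at -0.12 and Myog at 0.090 at 600 ppm, and Tnnt3 at -0.048 and Myog at 0.13 at 1000 ppm. With the slide as a block, Tnni2 (-0.00060), Actn3 (-1.03) and Myog (0.047) changed sign at 600 ppm, Tnnt3 (-0.27), Tnni2 (-0.032), Actn3 (-2.50) and Myog (0.031) at 1000 ppm, and Ankrd1 (-0.47), Acta1 (-0.33), Ckm (-1.12), Tnnt3 (-0.23), Tnnc2 (-1.04) and Actn3 (-3.22) at 1500 ppm. So did the dose slopes of Ankrd1 (-0.22), Acta1 (-0.093), Ckm (-0.56), Tnnt3 (-0.18), Tnnc2 (-0.58), Actn3 (-2.14) and Myog (0.11). So did the female minus male differences of Ankrd1 (-2.52, -3.77 and -4.16 at the 3 doses), Pvalb (-0.39, -0.81 and -0.61) and Myog (0.40, 0.52 and 0.92), of Acta1 (0.25) and Ckm (-1.17) at 1000 ppm, and of Tnni2 (0.054 and 0.29) and Tnnc2 (-2.16 and -1.35) at 1000 and 1500 ppm, all with an adjusted p above 0.05. With a rat left out, sign changes were seen in Ankrd1 (-0.029 to 0.55), Tnnc2 (-0.063 to 0.32) and Myog (-0.11 to 0.082) at 600 ppm, in Tnnt3 (-0.017 to 0.17) and Myog (-0.15 to 0.011) at 1000 ppm, and in Tnni2 (-0.094 to 0.0088) and Myog (-0.068 to 0.092) at 1500 ppm. No paired analysis was possible because the labels number the rats through all groups and no number is shared between groups.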
